A study of Mus musculus with 6 samples.

Results

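Dimethylation of lysine 79 of histone H3 (H3K79me2) was compared over genes between cells carrying the MLL-AF9 fusion with the D544R exchange and cells carrying the fusion without an exchange (WT), with 1 library on each side. The genes compared were those whose normalised counts averaged at least 100 over the 3 H3K79me2 libraries (WT, D544R and D546R), which left 8905 of the 24012 genes of the table. Chromatin immunoprecipitation followed by sequencing (ChIP-seq) had been done on hematopoietic progenitors isolated from mouse bone marrow. All cells had been transduced with a retrovirus that expresses MLL-AF9, so that every group carried the fusion, and cells without it were not analysed here. The groups used were WT, D544R and D546R with the H3K79me2 antibody (Abcam ab3594) and WT and D544R with an antibody to trimethylated lysine 79 (H3K79me3, Diagenode). Each group was a single library, and how many mice or cultures went into it is not given in the labels. No test between WT and D544R was therefore possible, and every interval below covers counting error only, with each read taken as an independent molecule. A weaker mark in every cell and the same mark in fewer cells cannot be told apart in such bulk material.

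H3K79 is methylated by the enzyme DOT1L, and the mark lies over the bodies of transcribed genes, densest after the start of transcription. AF9 is a binding partner of DOT1L, and in the MLL-AF9 fusion it brings the enzyme to genes bound by the MLL portion, whose CXXC domain recognises unmethylated CG-rich DNA. Known targets of MLL fusions include the homeobox genes of the HoxA cluster and Meis1, which keep blood progenitors immature. The study asked how far methylation of such genes depends on the recruitment of DOT1L by the fusion. D544R and D546R name the exchanged residues of the fusion.

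Each value of the table was the number of reads over a gene region. Per the file headers the region starts 2 kb before the transcription start and ends with the transcript. The table has no strand, so whether every promoter lay inside its counted region was not checked. The promoters below belong to Chl1, the 1 gene past 2-fold lower, to Odf2 and Zbtb7b, which were past 2-fold higher, and to Meis1, a fusion target with many counts in both libraries. They come from RefSeq (GRCm38.p6) and run 5′ to 3′ from 250 bases before to 50 bases after the most upstream start, with CG pairs, which read the same on both strands, in capitals.
Chl1, chr6:103510626-103510925, plus strand: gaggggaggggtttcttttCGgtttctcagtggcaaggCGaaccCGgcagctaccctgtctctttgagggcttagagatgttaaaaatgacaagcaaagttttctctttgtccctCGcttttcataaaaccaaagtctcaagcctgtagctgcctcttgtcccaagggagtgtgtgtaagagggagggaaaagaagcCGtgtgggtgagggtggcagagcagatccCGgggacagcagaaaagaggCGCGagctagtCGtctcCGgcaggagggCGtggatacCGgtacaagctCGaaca
Odf2, chr2:29889470-29889769, plus strand: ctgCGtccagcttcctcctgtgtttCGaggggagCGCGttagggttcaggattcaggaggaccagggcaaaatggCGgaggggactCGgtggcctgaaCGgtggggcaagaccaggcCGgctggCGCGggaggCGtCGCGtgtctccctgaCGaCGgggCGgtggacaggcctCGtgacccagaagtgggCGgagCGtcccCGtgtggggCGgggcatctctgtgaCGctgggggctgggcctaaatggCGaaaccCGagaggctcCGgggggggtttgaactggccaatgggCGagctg
Zbtb7b, chr3:89393329-89393628, minus strand: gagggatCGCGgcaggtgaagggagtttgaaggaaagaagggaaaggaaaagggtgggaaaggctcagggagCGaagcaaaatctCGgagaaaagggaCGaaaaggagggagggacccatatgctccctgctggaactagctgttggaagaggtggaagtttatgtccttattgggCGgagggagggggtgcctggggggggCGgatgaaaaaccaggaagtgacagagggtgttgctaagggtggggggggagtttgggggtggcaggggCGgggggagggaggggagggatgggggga
Meis1, chr11:19018920-19019219, minus strand: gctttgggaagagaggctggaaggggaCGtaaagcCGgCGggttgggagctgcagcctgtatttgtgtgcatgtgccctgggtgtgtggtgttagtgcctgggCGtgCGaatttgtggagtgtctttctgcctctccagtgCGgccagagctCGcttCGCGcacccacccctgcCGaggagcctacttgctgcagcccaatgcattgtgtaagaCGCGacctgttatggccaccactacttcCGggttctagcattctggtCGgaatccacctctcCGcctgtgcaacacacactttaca
They held 13, 26, 8 and 15 CG pairs, in that order. Of the 27025 RefSeq mouse promoters of the same length, 38.5%, 16.8%, 49.1% and 35.2% held at least as many. The table of promoters matched 7059 (79.3%) of the 8905 genes, and promoter content was therefore not compared across genes.

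The libraries held 5993741 counts in WT and 4287873 in D544R; a region listed at 0 could have held up to 3. Their size factors, which put the libraries on 1 scale, were 1.35 and 0.972. Markers of hematopoietic progenitors such as Kit and Cd34 had a summed normalised count of 6774 in WT and 7200 in D544R over 7 genes, and 5 of the 7 were over 2 times the level of silent genes in both libraries. Their median log2 ratio of D544R to WT was -0.04, with 2 of 7 above 0. Markers of granulocytes and macrophages had 1187 and 1207 over 8 genes, a median log2 ratio of 0.13 and 7 of 8 above 0. Erythroid markers had 69.8 and 84.3 over 5 genes, markers of T cells 304.5 and 304.4 over 4, of B cells 1355 and 1243 over 4, and of stroma and endothelium 584.5 and 599.6 over 6. The median member of these last 4 lists lay between 0.78 and 1.08 times the silent level in both libraries, and no marker was at 0. Where the silent level is used here, it is the median count per kb of 54 genes of other tissues in the same library.

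The D544R and WT libraries were close over most genes. The log2 ratio of D544R to WT had a median of -0.01 and a standard deviation (SD) of 0.21 over the 8905 genes. Of these, 87.8% lay within 1.25-fold of no change and 98.6% within 1.5-fold. The middle 95% of genes ran from -0.41 to 0.46. In D546R, set against the same WT library, the SD was 0.40, and 61.0% of the genes lay within 1.25-fold and 86.9% within 1.5-fold. Across genes, which are not independent replicates, log2 counts per kb had a Pearson correlation of 0.98 between WT and D544R and of 0.95 between WT and D546R (n = 8905 genes). All 3 libraries share the gene lengths and the antibody, which raise such a correlation in each pair.

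The distance between the libraries shrank with the count of the gene but stayed above counting error at every level. Genes with a mean of 100 to 200 (n = 3436) had an SD of 0.26, where counting alone gives 0.17. From 500 to 1000 (n = 1396) the SD was 0.15 against 0.076, and from 1000 to 2000 (n = 691) it was 0.13 against 0.054. The observed SD was thus 1.58 times that of counting among the genes with the fewest counts and 2.48 times among genes of 1000 to 2000. At a mean of at least 2000 (n = 208) the SD was 0.16 against 0.037. Without Chl1 it was 0.13 over the other 207 genes. Of the 899 genes with a mean of at least 1000, 97.8% lay within 1.25-fold. No replicate of a group was there to show how much of this spread is found between libraries of 1 genotype.

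**Figure D1:**
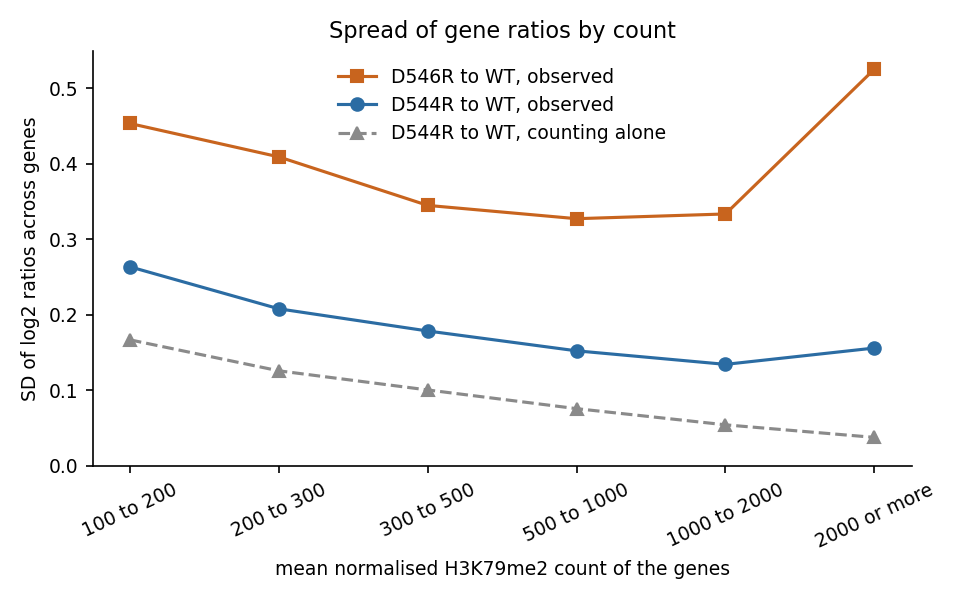
The SD of log2 ratios across genes (y axis) is plotted for 6 classes of mean normalised H3K79me2 count (x axis) for D544R to WT (circles), for D546R to WT (squares) and as counting alone gives it for D544R to WT (triangles). The D544R line falls from 0.26 to 0.13 and ends at 0.16 in the class that holds Chl1, above the counting line and below the D546R line in every class.

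Because the mean that admits a gene includes the libraries compared, the genes nearest to the minimum are given as they stand. Just inside were Map2k2, with 119 counts in WT and 90 in D544R, and Gm5544 with 141 and 101. Just outside were Nek5 with 126 and 109, Tcte2 with 143 and 112, and Adck3 with 119 and 95. Their log2 ratios were 0.07 and -0.01 inside and ran from 0.12 to 0.26 outside the minimum.

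A gene was called past 2-fold when its ratio was at least 2-fold and its 95% counting interval excluded no change. By this rule, which is one of size and not a test, 1 gene was lower in D544R (0.0112% of 8905) and 3 were higher (0.0337%). In D546R against the same WT library 77 were lower (0.865%) and 79 higher (0.887%). The gene that was lower was Chl1, which encodes a neural cell adhesion molecule of the L1 family. Its region (NM_007697, mm9 chromosome 6, 103458869 to 103683029) overlapped no other and had 5922 counts in WT, 1653 in D544R and 5467 in D546R. After scaling it was 2.59-fold lower in D544R than in WT, a log2 ratio of -1.37 (-1.45 to -1.29). The ratio lay 11.9 local spreads below the median, where the local spread is the scaled median absolute deviation of the 500 genes nearest in count.

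Chl1 stood high over its surroundings in all 3 libraries. Its counts per kb were 9.19 times the silent level in WT, 3.59 times in D544R and 17.5 times in D546R, so that D544R was the lowest and D546R the highest. The neighbouring adhesion genes of the contactin family were near the silent level. Cntn3 had 808 counts in WT and 566 in D544R (log2 ratio -0.04), Cntn6 951 and 693 (0.01), and Cntn4 2943 and 1972 (-0.11). Pdzrn3, the next gene with enough counts on the side of Cntn3, was at -0.19. None of these 4 neighbours was past 1.5-fold. In H3K79me3 Chl1 went from 6301 counts to 4223, and the log2 ratio was -0.41 (-0.46 to -0.35). The H3K79me3 libraries share no reads with those of H3K79me2, and whether they came from the same cells is not given.

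**Figure D2:**
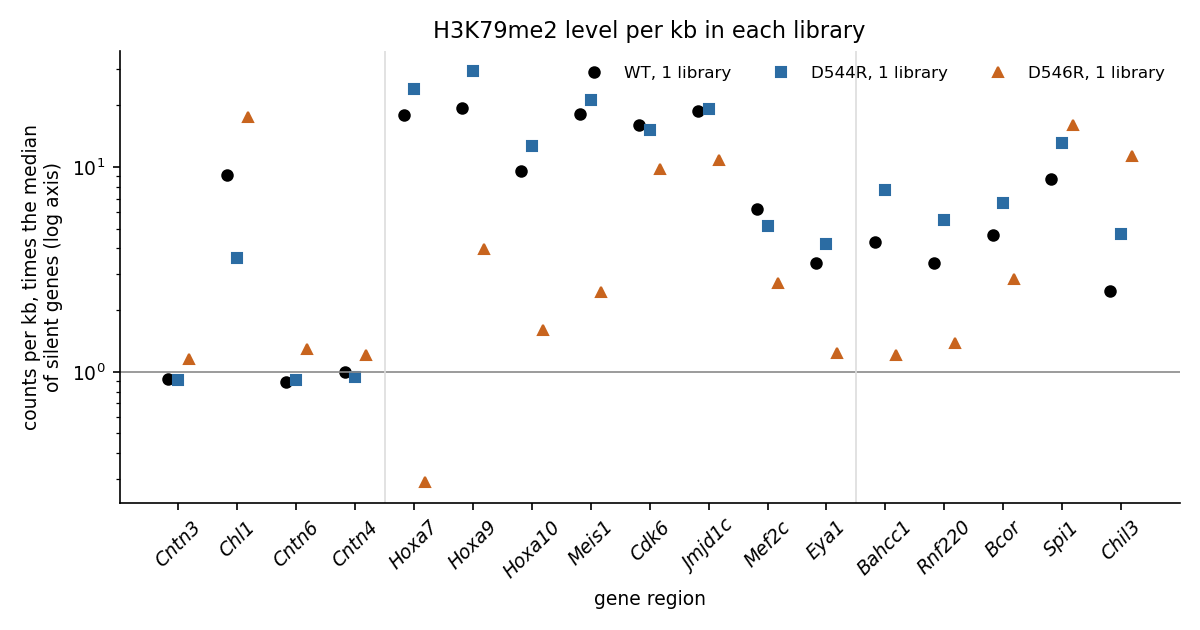
Counts per kb in H3K79me2, as multiples of the median of silent genes in the same library (y axis, log axis), are shown for 17 gene regions in the WT (circles), D544R (squares) and D546R (triangles) library, each 1 library with no error between cultures. Chl1 stands at 9.19, 3.59 and 17.5 between contactin genes near 1, and the HoxA genes and Meis1 stand higher in D544R than in WT and lower in D546R.

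The 3 genes past 2-fold higher had few counts. Normalised, their WT counts were 82.4 (Odf2), 96.6 (Zbtb7b) and 73.5 (Snord95), below the minimum mean of 100. They were admitted only through the D544R and D546R libraries, where they were higher. Odf2, a gene of the sperm tail and of centrioles (NM_001113214, mm9 chromosome 2, 29743239 to 29778058), had 111 counts in WT, 174 in D544R and 114 in D546R. Its log2 ratio in D544R was 1.12 (0.77 to 1.47), which is 2.17-fold higher, and in H3K79me3 it was 0.33. Zbtb7b, a regulator of T cell lineage choice (NM_009565, mm9 chromosome 3, 89179567 to 89197125), had 130, 197 and 189 counts and a log2 ratio of 1.07 (0.74 to 1.40). In H3K79me3 it was at -0.39. Both lay above WT in D544R and in D546R, where their log2 ratios were 0.86 and 1.36 against the shared WT library.

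Snord95, a small nucleolar RNA gene on chromosome 11, had 99, 146 and 91 counts and a log2 ratio of 1.03 (0.65 to 1.41). Its region lies inside that of its host Gnb2l1, a ribosome-associated protein gene, which had 182 counts in WT and 213 in D544R (0.70). It also shares 0.971 kb with Snord96a (120 and 138, 0.67). These 3 values rest in part on the same reads. The region of Zbtb7b shares 0.914 kb with Gm15417, which had 36 and 28 counts.

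With a threshold of 1.5-fold, 46 genes were lower (0.517%) and 76 higher (0.853%) in D544R, against 379 lower (4.26%) and 792 higher (8.89%) in D546R. The balance depended on the scaling: with size factors from 51 silent genes over the 3 libraries, called the silent gene reference below, 16 were lower and 196 higher in D544R. With 54 silent genes over WT and D544R alone these were 39 and 94. The D544R calls were mostly genes with few counts. Of the 76 higher genes 63 (82.9%) had a mean below 200, and of the 46 lower genes 39 (84.8%), against 38.6% of all 8905 genes. The higher genes had a median region of 24.2 kb and the lower ones of 36.5 kb, against 54.1 kb for all. In H3K79me3, 42 of the 76 higher genes (55.3%) had a ratio above 0, beside 48.9% of all genes, and 25 of the 46 lower genes (54.3%) a ratio below 0, beside 51.1%. Both shares were near those of all genes. In D546R H3K79me2, against the same WT library, the 76 higher genes had a median log2 ratio of 0.56. The 46 lower genes had -0.05 there and all genes 0.07. The 76 genes were picked for a high ratio to WT, and a low WT count raises both ratios. The mean that admits a gene also includes D544R and D546R, so genes low in WT enter only if they are higher there. The D546R median is thus not independent of the D544R calls.

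**Figure D3:**
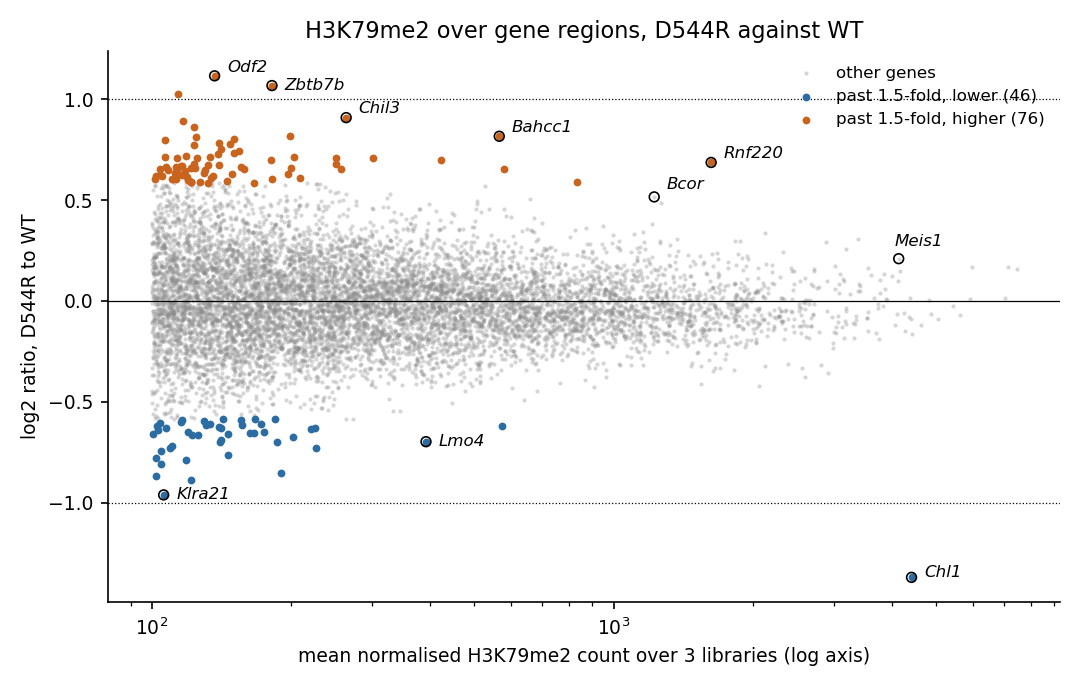
Each point is 1 of 8905 genes, placed by its mean normalised H3K79me2 count (x axis, log axis) and its log2 ratio of D544R to WT (y axis), with the 46 lower and 76 higher genes past 1.5-fold coloured and dotted lines at 2-fold. The cloud narrows to the right, and Chl1 at -1.37 lies alone at the lower right.

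After Chl1 the lowest ratios belonged to Klra21, a natural killer cell receptor gene, with 187 counts in WT and 69 in D544R (-0.96, -1.39 to -0.56), and to the phosphatase subunit gene Ppp2r3c with 180 and 70 (-0.89). Dct, a pigment enzyme gene, was at -0.87, the receptor gene Gpr128 at -0.85, Zfp944 at -0.76 and Stard3nl at -0.74. Klra21, Dct and Gpr128 had 1.32 to 1.51 times the silent level in WT and 0.68 to 0.84 times in D544R. The highest after Odf2 and Zbtb7b were Chil3, a chitinase-like gene of myeloid cells (157 and 213 counts, 0.91), the transporter gene Slc41a3 (0.89), Zc3h12d (0.86), Palm (0.82), Bahcc1 (0.82) and the autophagy gene Wipi1 (0.81).

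Among the 899 genes with a mean of at least 1000, where counting error is smallest, Chl1 and Rnf220 were the 2 past 1.5-fold. Rnf220, a ubiquitin ligase gene (mm9 chromosome 4, 116942068 to 117169520), had 2221 counts in WT, 2581 in D544R and 441 in D546R. Its log2 ratio in D544R was 0.69 (0.60 to 0.77), 6.69 local spreads above the median. In H3K79me3 it was at -0.04. Bcor, a corepressor that binds AF9, had 1673, 1727 and 501 counts and a log2 ratio of 0.52 (0.42 to 0.61), with 0.22 in H3K79me3. Its region overlaps another. Btaf1, which encodes a TBP-associated remodeler, was at 0.49, Zfp516 at 0.38, and Rcsd1 and Chst11 at 0.34.

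Bahcc1, a chromatin reader gene (mm9 chromosome 11, 120092260 to 120153611), had fewer counts, with 762 in WT, 969 in D544R and 103 in D546R. Its log2 ratio in D544R was 0.82 (0.68 to 0.96), 5.64 local spreads above the median, and 0.90 (0.72 to 1.07) in H3K79me3. In the D546R library Rnf220, Bcor and Bahcc1 were at -1.51, -0.92 and -2.06 against the WT library that both comparisons share. For all 3 genes WT lay between D546R and D544R. The lowest of the well-counted genes after Chl1 were Pde3b, a cyclic nucleotide phosphodiesterase gene (3754 and 2021 counts, -0.42, -0.50 to -0.35), Rap1gds1 (-0.41), Sfi1 (-0.38), the E protein gene Tcf12 (-0.36) and the corepressor gene Ctbp2 (-0.35). In H3K79me3 Pde3b was at -0.67, Rap1gds1 at -0.29, Sfi1 at -0.06, Tcf12 at -0.47 and Ctbp2 at -0.21.

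The HoxA cluster had 4 of its 11 genes above the minimum, and all 4 had a ratio above 0 (47% of all genes did). Their median was 0.44, against -0.01 for all genes, and none was past 1.5-fold. Hoxa9, a driver of MLL leukemia, had 350 counts in WT, 378 in D544R and 35 in D546R. Its D544R ratio was 0.58 (0.37 to 0.79). Hoxa7 had 254, 245 and 2 counts (0.42, 0.16 to 0.68) and Hoxa10 had 319, 302 and 26 (0.39, 0.16 to 0.62). Hoxa3 was at 0.46. Before scaling the WT and D544R counts of these genes were nearly equal, while the D544R library held fewer counts in all.

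Hoxa5, below the minimum, had 43, 70 and 2 counts. Summed over the 11 genes the ratio was 0.47 (0.37 to 0.57). The regions of Hoxa3, Hoxa7 and Hoxa10 overlap other regions, and that of Hoxa9 does not. In H3K79me3 the list had a median of 0.35, with Hoxa9 at 0.48, Hoxa10 at 0.65 and Hoxa7 at 0.00. The D546R median of the same 4 genes in H3K79me2 was -2.63.

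With the size factors used here, the other fusion targets were spread evenly around no change. Of 24 with enough counts 12 were above and 12 below 0, beside 47% and 53% of all genes. Their median was -0.01, or 0.096 with the silent gene reference, and none was past 1.5-fold with the size factors used here. Meis1, the partner of HOXA9, had 7372 counts in WT, 6154 in D544R and 480 in D546R. It was at 0.21 (0.16 to 0.26) in D544R, which is 2.34 local spreads above the median, and at -0.20 in H3K79me3. Runx1, a regulator of blood formation, had 3396, 2927 and 3084 counts (0.26, 0.18 to 0.33), and the developmental regulator gene Eya1 had 1405, 1232 and 247 (0.28, 0.17 to 0.39). Eya1 and Runx1 were at 0.33 and 0.25 in H3K79me3.

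At the low end of the fusion targets were Chd9, a chromatin remodeler gene with 5059, 2902 and 709 counts (-0.33, -0.40 to -0.27), and Mef2c, a transcription factor gene with 2982, 1757 and 626 (-0.29, -0.38 to -0.21). Their H3K79me3 ratios were -0.45 and -0.36. The cell cycle kinase gene Cdk6 had 8250, 5599 and 2461 counts and stood at -0.09 (-0.14 to -0.04), a sign that turned with the silent gene reference, where it was at 0.019. Jmjd1c, a histone demethylase family gene, had 7067, 5162 and 1974 counts and stood at 0.02. Pbx3 and Myb were at -0.04 (0.066 and 0.072 with the silent gene reference) and Flt3 at -0.12, with intervals that included no change. These intervals are narrow for Cdk6 and Jmjd1c, which both lay within 1 local spread of the median.

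Genes of the machinery that the fusion recruits, DOT1L, the AF9 family and the elongation complexes, had a median of 0.00 over 21 genes, with 10 above 0. Dot1l itself had 402 counts in WT and 283 in D544R (-0.04, or 0.073 with the silent gene reference) and Mllt3, the mouse AF9 gene, 168 and 102 (-0.25, -0.62 to 0.11). The elongation gene Leo1, lowest of this list, was at -0.36 and Bcor was the highest. The MLL family and its COMPASS partners had a median of -0.01 over 10 genes, from Paxip1 at -0.27 to Setd1a at 0.30. No member of either list was past 1.5-fold.

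Genes of myeloid cells lay above the median of all genes. Effector genes of neutrophils and monocytes had a median of 0.26 over 17 genes, 13 of them above 0, and granulocyte and monocyte progenitor genes had 0.20 over 10, with 8 above 0, where 47% of all genes were above 0. Against the same WT library, the D546R medians of the effector and progenitor genes in H3K79me2 were 0.79 and 0.35, beside 0.07 for all genes. The D544R median of the progenitor genes in H3K79me3 was -0.04. Of the 17 effector genes 2 were past 1.5-fold higher in D544R, as were 0.853% of all genes. They were Chil3 and the adhesion gene Ceacam1, which had 108 counts in WT and 136 in D544R (0.80). The mean that admits a gene includes D544R and D546R, so genes low in WT enter only if they are higher there. The share of calls is therefore not independent of the filter. At the other end was Itgam, the integrin CD11b gene, with 502 and 287 counts (-0.34, -0.55 to -0.12). Spi1, the gene of the transcription factor PU.1, had 524, 562 and 471 counts, a log2 ratio of 0.57 (0.40 to 0.75) in D544R and of -0.85 in H3K79me3.

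The effector list was sensitive to how it was summed up. Its ratio of summed counts was 0.16, and those members whose mean reached 300 had a median of 0.05. In H3K79me3 the median of the 17 genes was 0.48. The markers of granulocytes and macrophages given above, some of which are in this list, had 7 of 8 ratios above 0 and a median of 0.13, and their sums differed by a log2 ratio of 0.02. Their part in this list was not tested.

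The other blood lists had medians between -0.22 and 0.13. Stem and progenitor genes had a median of 0.09 over 12 genes, from Hmga2 at -0.28 to Hlf, a stem cell transcription factor gene past 1.5-fold with 143 and 163 counts (0.66, 0.33 to 0.99). Hlf stood at 0.88 times the silent level in WT and at 1.41 times in D544R. Erythroid and megakaryocyte genes had a median of 0.01 over 8, from Rhag at -0.43 to Nfe2 at 0.31. Lymphoid genes had -0.04 over 6, from Ebf1 at -0.16 to Ikzf1 at 0.04, and mast cell and basophil genes -0.22 over 3, from Hdc at -0.28 to Cpa3 at -0.21. Interferon response genes had 0.13 over 3, with Ddx58 the lowest at 0.08.

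Among genes used by every cell, housekeeping genes had a median of 0.12 over 14 genes, and 3 were past 1.5-fold higher, beside 0.853% of all genes. These were the elongation factor gene Eef2 with 151 and 174 counts (0.67), the chaperone gene Hspa8 with 106 and 121 (0.66) and the tubulin gene Tubb5 with 132 and 148 (0.63). Genes with so few counts are admitted partly by their D544R and D546R counts, so this share is not independent of the filter. The lowest was Hprt at -0.28, and members whose mean reached 300 had a median of -0.05. Actb and Gapdh, below the minimum, had 82 and 78 counts and 105 and 89. Cytosolic ribosomal protein genes had a median of 0.10 over 36 genes matched by name, or 0.11 over 29 without the Rps6k kinases, which the name pattern also takes. Rps19 was past 1.5-fold with 144 and 179 counts (0.78, 0.46 to 1.11).

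Small nucleolar RNA genes had a median of 0.45 over 8, with 7 above 0. Snord95 and Snord96a were past 1.5-fold higher, beside 0.853% of all genes. All 8 regions overlap a host or a neighbour, so their counts are not independent. The microRNA regions had a median of 0.09 over 18, from Mir101c at -0.73 to Mir6364 at 0.45. Mitochondrial ribosomal protein genes had -0.01 over 20, from Mrps25 at -0.44 to Mrpl51 at 0.58, and proteasome genes 0.01 over 26, from Psmd2 at -0.37 to Psme3 at 0.51. Respiratory chain genes had -0.03 over 41, from Ndufa8 at -0.39 to Ndufa13 at 0.71. Past 1.5-fold higher were 3 of the 41, Ndufa13 among them, beside 0.853% of all genes. Normalised, Ndufa13 had 72.0 in WT, below the minimum mean of 100.

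The lists of cell growth were centred close to the median of all genes. Cell cycle and mitosis genes had 0.05 over 28, from Ccnb1 at -0.31 to E2f2 at 0.54, and genes of MYC and ribosome assembly -0.03 over 21, from Wdr12 at -0.44 to Nop2 at 0.44. Cell cycle inhibitor and p53 genes had 0.01 over 14, from Fas at -0.46 to Cdkn1a at 0.33. The tRNA synthetase genes had 0.02 over 21, from Kars at -0.38 to Cars at 0.48. The kinesin and myosin motor genes had 0.02 over 48, from Kif20a at -0.43 to Myo7a at 0.48. Solute carrier genes had -0.01 over 191, from Slc13a1 at -0.70 to Slc41a3. Past 1.5-fold were 1 solute carrier gene lower and 5 higher of 191, beside 0.517% and 0.853% of all genes, and none in the other lists of cell growth named here.

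Several lists of other tissues lay near the silent level in WT. Their median members stood at 1.04 times for neuronal genes with long regions, 1.16 for clustered protocadherin and 1.28 for vomeronasal receptor genes. Zinc finger protein and Y chromosome genes stood at 3.59 and 2.23 times, beside 2.13 for all genes. Neuronal genes with long regions had a median log2 ratio of -0.11 over 32 genes, with 27 below 0 (53% of all genes were). Their median region was 1080 kb, and 15.6% of the 32 were above 0. All 302 regions of at least 400 kb had a median of -0.08, with 17.5% above 0, so the list was near other long regions. Chl1, at 9.19 times the silent level in WT, was the neuronal gene past 1.5-fold. The others ran from Pcdh9 at -0.19 to Nfasc at 0.13. Their median in H3K79me3 was 0.11. Clustered protocadherin genes, also neuronal, had 0.12 over 33, with 30 above 0 and none past 1.5-fold. They ran from Pcdhga11 at -0.01 to Pcdha4 at 0.26, and their regions are nested on chromosome 18 and share reads, so that they amount to few independent values.

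Vomeronasal receptor genes had a median of -0.10 over 17, from Vmn2r102 at -0.60 to Vmn2r26 at 0.39, and with the silent gene reference it was 0.01. Zinc finger protein genes had -0.03 over 137, from Zfp944 to Zfp664 at 0.53. Zfp944 and Zfp398 were past 1.5-fold lower, beside 0.517% of all genes. Genes of the Y chromosome had 0.09 over 5, from Uty at -0.21 to Ddx3y at 0.49, and the silent genes of other tissues 0.08 over the 6 with enough counts, from Syt1 at -0.20 to Apob at 0.47. Summed over all members, kept or not, the ratio was 0.00 for the 54 silent genes (-0.06 to 0.05), -0.09 for 1122 olfactory receptor genes (-0.13 to -0.05) and -0.08 for 330 vomeronasal receptor genes (-0.12 to -0.04). The olfactory receptor, histone cluster and keratin lists had 1 gene each above the minimum, Olfr56 at 0.08, Hist1h2be at -0.56 and Krt85 at -0.04. Beta-defensin genes and the HoxB, HoxC and HoxD clusters had none, and their summed ratios were both -0.08, with intervals that included no change.

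**Figure D4:**
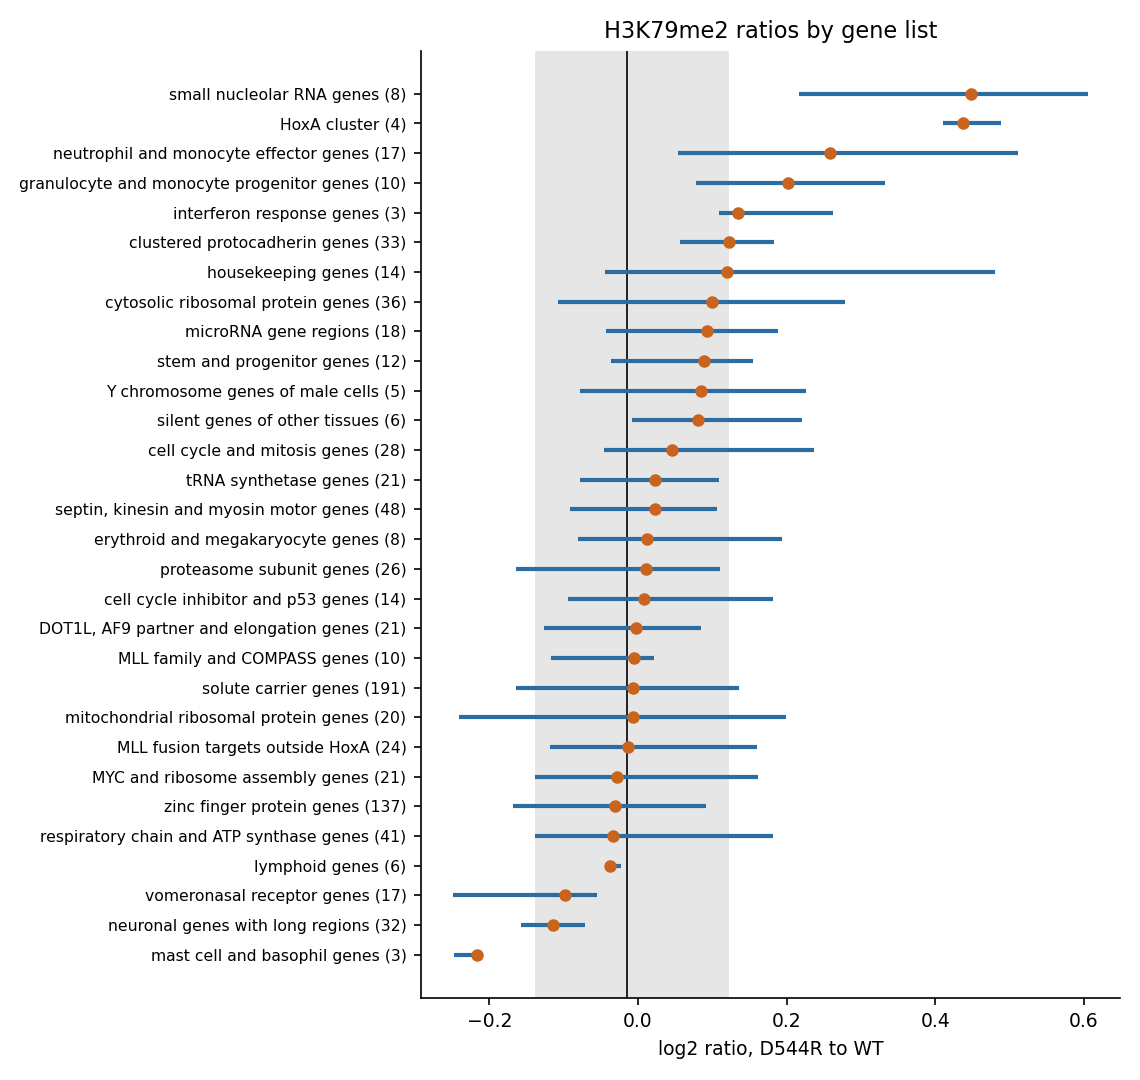
The median log2 ratio of D544R to WT in H3K79me2 (points) and the range from the lower to the upper quartile of the members (bars) are shown for each list with at least 3 genes above the minimum, with the number of genes in brackets. The line and the grey band mark the median (-0.01) and quartiles (-0.14 to 0.12) of all 8905 genes. Small nucleolar RNA, HoxA and myeloid effector genes have the highest medians. The list labelled with septin, kinesin and myosin was matched by kinesin and myosin names only.

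The small shift that ran through most genes followed the length of the region. Regions below 10 kb (n = 347) had a median log2 ratio of 0.05, and 55.6% were above 0. Those of 10 to 30 kb (n = 1991) had 0.03, those of 30 to 100 kb (n = 4272) -0.01 and those of 100 to 400 kb (n = 1993) -0.04. Regions of at least 400 kb (n = 302) had -0.08, with 17.5% above 0 beside 47% of all genes, and none past 1.5-fold. With the silent gene reference the last median was 0.025 and that of regions below 10 kb 0.16. In D546R, set against the same WT library, the medians from the shortest to the longest class were 0.17, 0.25, 0.07, -0.04 and -0.07.

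In H3K79me3 the D544R medians ran the other way, from -0.11 below 10 kb and -0.13 at 10 to 30 kb to 0.11 at 400 kb or more. Within the longest class the 280 genes under 2 times the silent level in D546R, a library outside this comparison, had a median of -0.09, and the 22 above it had -0.07. When genes were ranked by counts per kb in the WT H3K79me3 library, the medians of 10 classes lay between -0.04 and 0.01, with both ends at 0.01. Ranked in the D546R H3K79me2 library instead, the medians went from 0.00 in the least dense class through -0.05 in the next 2 up to 0.04 in the densest, where 59.5% were above 0. By chromosome the medians lay between -0.06 (chromosome 14) and 0.03 (chromosome 11), with -0.06 on X and 0.09 over 10 regions on Y.

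**Figure D5:**
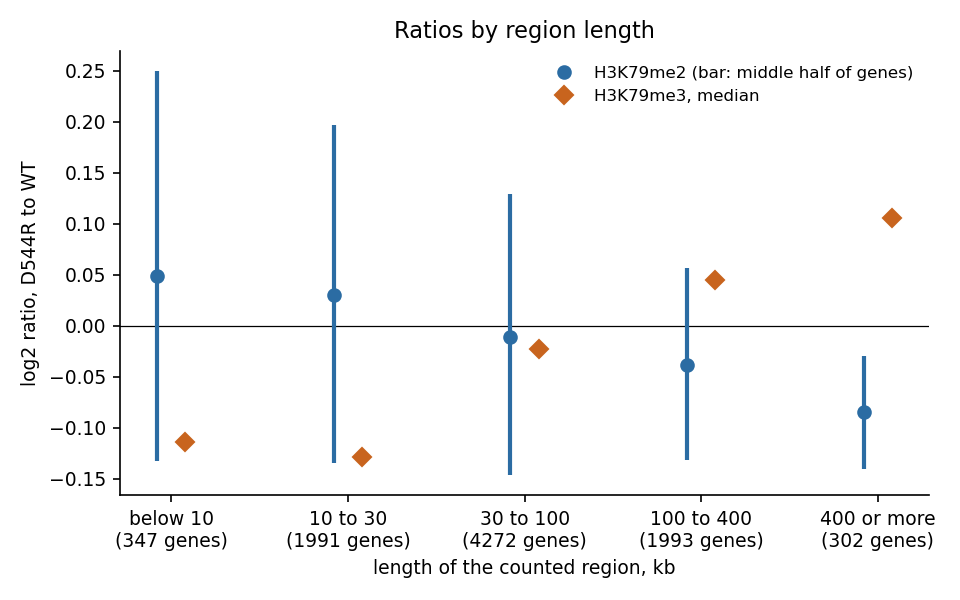
The log2 ratio of D544R to WT (y axis) is shown by length of the counted region (x axis, kb) as the median in H3K79me2 (circles, with bars from the lower to the upper quartile of genes) and the median in H3K79me3 (diamonds). The H3K79me2 medians go from 0.05 down to -0.08 and the H3K79me3 medians from -0.11 up to 0.11.

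Across genes the D544R ratios of the 2 marks were nearly unrelated, with a Pearson correlation of 0.03 (n = 8905) and of 0.05 at a mean of at least 1000 (n = 899). With overlapping regions left out, each region compared was paired with the next one left on its chromosome, at any distance. The H3K79me2 ratios of such pairs were similar only to a small degree, with a correlation of 0.087 over 5275 pairs. Both are descriptions across genes, which share the libraries and are not independent. Of the regions compared, 3603 (40.5%) overlapped another region of the table. Without them 1 gene was past 2-fold lower and 1 higher, Chl1 and Odf2.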

How the data were processed

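ChIP-seq of H3K79me2 and H3K79me3 had been done on 3 genotypes, with 1 library each. The authors deposited raw counts of reads for each gene. The counted region runs from 2 kb upstream of the start to the end of the transcript, per the file headers. Per the labels, chromatin was sonicated to about 300 bp, and several sequencing runs were merged for each library. Bowtie, bedtools, DESeq and the mm9 build are named per the submitters' processing notes, with their roles not given in the sources used here. Duplicate handling is not given, and the table has no strand, so the side of the 2 kb extension was not checked.

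Size factors were the median of ratios over the 3 H3K79me2 libraries, from 23029 genes with a count in all 3 (20863 for H3K79me3), rescaled to a geometric mean of 1. Log2 ratios used a prior count of 0.5, and intervals were exact conditional binomial (Clopper-Pearson) 95% intervals. A ratio was called past 2-fold or 1.5-fold at a mean normalised count of at least 100 when its interval excluded no change. No significance test was made with 1 library a side. Totals of 4287873 counts or more in the libraries compared set this precision. Scripts ran in Python 3.11.15 with numpy 2.4.6, pandas 2.3.3, scipy 1.17.1 and matplotlib 3.10.9, and TMM factors came from edgeR 4.0.16. The code was tested on simulated data.

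The genes compared and the 35 gene lists, 18 written by member and 17 by name pattern, were chosen with earlier results of these data known. Named genes were those past 2-fold, the 8 lowest and 8 highest, the 6 lowest and 6 highest at a mean of at least 1000, fixed genes such as Hoxa9 and Meis1, and the extremes of each list. The 8 and the 6 left out predicted models, Mir, Snor and histone names and needed an interval without no change. Some genes that the rule takes are not reported here, and other genes were named after their values were seen. Alternatives were other scalings, minimum counts and prior counts, and leaving out overlapping regions.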

Additional observations from a re-analysis of the deposited data

How the results depend on the processing

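No paired analysis was possible because each group had 1 library. Total counts, TMM factors, and size factors from WT and D544R alone or from all 6 libraries left 1 gene past 2-fold lower and 3 higher. The 1.5-fold counts were then 39 to 55 lower and 68 to 93 higher, and regions of at least 400 kb had a median of -0.071 with total counts and -0.096 with all 6 libraries. Scaling to the median of ratios of 51 silent genes over the 3 libraries raised all ratios by 0.109 and their median to 0.09. It gave 83.9% of genes within 1.25-fold, 5 genes past 2-fold higher, 16 lower and 196 higher past 1.5-fold, a HoxA median of 0.55, a myeloid effector median of 0.37, 0.025 for regions of at least 400 kb and 0.019 for Cdk6. Over WT and D544R alone, an alternative chosen after seeing the data, 54 silent genes moved the ratios by 0.014, with 39 and 94 genes past 1.5-fold and -0.070 for regions of at least 400 kb. Silent genes are thinly covered, with medians of 28.5 (WT) and 18.5 counts (D544R).

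A minimum mean of 300 gave 95.1% within 1.25-fold, an SD of 0.16, 0 genes past 2-fold higher, 3 lower and 6 higher past 1.5-fold and an effector median of 0.053. A minimum of 1000 gave 97.8%, 0.14, 0, 1 and 1, with no HoxA or effector gene left. No filter gave 60.3%, an SD of 0.65, 366 lower and 643 higher past 2-fold, 733 and 1245 past 1.5-fold and an effector median of 0.16. A prior count of 5 gave an SD of 0.21. Without overlapping regions 1 gene was past 2-fold higher and 46 past 1.5-fold higher, and HoxA kept Hoxa9 alone, at 0.58. The ratio of summed counts of the effector genes was 0.16. The cause of these moves was not tested.

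Over 100 named genes and 7 settings of scaling or prior count, 683 of 700 ratios stayed within their counting intervals and 16 left them with the same sign. Cdk6 was the 1 gene to change sign whose interval excluded no change. With intervals that included it, Pbx3, Myb, Dot1l, Krt85 and Pcdhga11 changed sign too. Of 366 other recomputed medians of lists and classes 275 stayed within the interval of their summed counts and 91 did not, and 68 had the other sign. Leaving out Chl1 and the Rps6k kinases was chosen after seeing the data and gave an SD of 0.21 and a ribosomal protein median of 0.11. Counts of 100 to 200 limit what can be seen: there 78.8% of genes lay within 1.25-fold, and smaller differences of single genes are within the spread.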
